A study of Rattus norvegicus with 4 samples.

Results

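The enzymes that remove superoxide and peroxides, together with heme oxygenase, were examined in the cortex of rats after an experimental stroke, in animals given estradiol and in animals given placebo. Of 10 genes chosen for this role (Sod1, Sod2, Sod3, Cat, Gpx1, Prdx1, Prdx6, Hmox1, Txn1 and Gclc), 9 were represented on the array by 19 probe sets that carried the gene as their only symbol, among 8740 probe sets and 4736 named genes in all. No probe set was assigned to Txn1, the cytosolic thioredoxin, which was not analysed here. Probe sets were taken by gene symbol, and the rule uses no measured value.

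All rats were ovariectomised females with a 2 h occlusion of the middle cerebral artery made from inside the vessel, so both groups share the loss of the ovaries and the stroke. The first group received 17beta-estradiol and is labelled Estrogen treated, and the second is labelled Placebo treated. There were 2 arrays per group, with RNA of 3 animals pooled on every array, so a value describes a pool and not an animal. The pools are called estradiol 1, estradiol 2, placebo 1 and placebo 2. The labels give cortex ipsilateral to the stroke, and no age or strain. The series design text names tissue taken at 6 and 24 h after occlusion, and the sample codes of these arrays include a 6. Since the labels do not spell out what it stands for, no time is assigned here.

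Superoxide dismutases turn superoxide, which leaks from mitochondria and is made by oxidases when blood flow returns to ischaemic tissue, into hydrogen peroxide. Catalase, glutathione peroxidases and peroxiredoxins then break down the peroxide. The peroxidases and peroxiredoxins draw on glutathione, whose synthesis is limited by glutamate cysteine ligase, or on thioredoxin. Heme oxygenase 1 opens the heme ring to release iron, carbon monoxide and biliverdin, and is one of the most strongly induced stress enzymes of injured brain, mainly in glia and macrophages. Several of these genes share the transcription factor NRF2 (Nfe2l2), which binds antioxidant response elements.

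Values are intensities as deposited by the authors, in arbitrary units that compare arrays for 1 probe set but do not compare probe sets or genes. Of the 19 probe sets, 15 of 8 genes passed a filter on mean intensity at the 40th percentile, 37.5, and were tested with limma on log2(intensity + 16), across all 5244 probe sets that passed. Errors beside means are the SD of 2 pools, and SE is the standard error of the fit. With estradiol, 9 of the 15 member probe sets had a log2 fold change above 0 and 6 below, with a median of 0.11, against 0.01 over all probe sets tested. The values lay between -0.86 and 0.54. None passed a Benjamini-Hochberg adjusted p of 0.05 in limma (0 of 15, with an adjusted p of 0.998 for each), and 0% of all tested probe sets passed in either direction. At an unadjusted p below 0.05 there was 1 member, a probe set of Prdx6 that was higher with estradiol, where 1.74% of all probe sets were higher and 1.33% lower at that value, 3.07% in all. That same probe set was also the only 1 of the 15 whose estradiol and placebo values did not overlap. Of all probe sets, 15.4% did not overlap and were higher with estradiol and 14.3% were lower, 29.7% in all. The split of 9 above and 6 below depended on the placebo pools. It was 12 above and 3 below without placebo 1, and 4 above and 11 below without placebo 2.

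**Figure D1:**
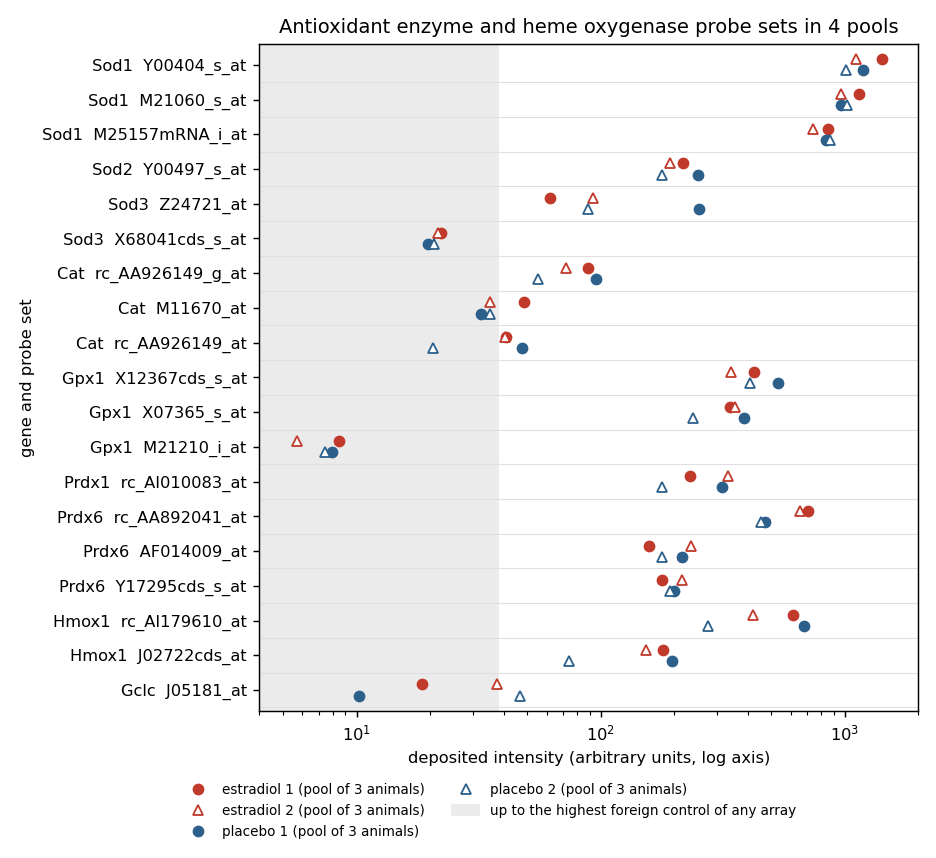
Deposited intensity (log axis, arbitrary units) of the 19 member probe sets in the 2 estradiol pools (red) and the 2 placebo pools (blue), with pool 1 as filled circles and pool 2 as open triangles. Grey marks values up to the highest foreign control of any array, 37.8. The red symbols lie clear of both blue ones for Prdx6 rc_AA892041_at, whereas for Hmox1 both red symbols lie between the blue ones.

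Median intensities lay between 55.0 and 57.8, and the brightest of 23 control probe sets for transcripts foreign to rat, taken as background, read 30.1 to 37.8. The 3' to 5' ratio of GAPDH, a measure of RNA integrity, was 1.30 to 1.45, and that of actin 1.28 to 1.58. Of the neuron markers, 12 of 13 measured passed the filter, whereas Slc17a7, the vesicular glutamate transporter of most cortical excitatory neurons, stood at background on every array, by its 1 probe set. Markers of striatum, a neighbouring region, summed to 2854.3 and 2677.3 with estradiol, against 1938.2 and 2052.5 with placebo over 11 genes, of which Drd2 and Gpr6 were at background on every array. Of the 9 that passed the filter, 6 had log2 fold changes above 0, and Penk (640.9 and 526.0 with estradiol, against 174.3 and 279.0 with placebo) and Tac1 (380.6 and 408.4 with estradiol, against 108.3 and 116.0 with placebo) carried most of the gap. These 2 were named after their values were seen. Neutrophil markers summed to 512.8 and 436 with estradiol, against 594.9 and 417.8 with placebo over 5 genes, of which Defa5 was at background on every array. Cd24 was the largest part of each sum, with 197.9 and 233.8 with estradiol, against 284.3 and 219.4 with placebo, and 3 of the 5 passed the filter. The arrays number 2 per group, and an exact two-sided permutation test of 2 against 2 pools cannot give a p below 0.333.

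Hmox1, the inducible heme oxygenase, was measured by 2 probe sets that gave the same order of pools. Probe set rc_AI179610_at read 610.2 and 420.1 in estradiol 1 and 2, against 678.5 and 275.0 in placebo 1 and 2. Probe set J02722cds_at read 180.5 and 153.2 in the estradiol pools, against 195.0 and 74.2 in the placebo pools. In both, the estradiol pools lay between the placebo pools, so the groups overlapped completely. The first averaged 515 ± 134 with estradiol and 477 ± 285 with placebo (SD, n = 2 each). Log2 fold changes were 0.22 ± 0.40 (SE) for the first and 0.40 ± 0.38 (SE) for the second, with an adjusted p of 0.998 in limma for each. The 95% intervals of the fit ran from -0.71 to 1.14 and from -0.49 to 1.30 on the log2 scale, so a log2 difference of 1 in favour of estradiol lay inside both. Hmox1 was 2.47-fold and 2.63-fold brighter in placebo 1 than in placebo 2 by the 2 probe sets, and 1.45-fold and 1.18-fold brighter in estradiol 1 than in estradiol 2. Which placebo pool was kept decided the direction. Without placebo 1 the log2 fold changes were 0.84 and 1.02, and without placebo 2 they were -0.41 and -0.21.

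Prdx6 gave the only member probe set whose groups were apart, and its other 2 probe sets gave log2 fold changes close to 0. Prdx6 encodes a peroxiredoxin with a single active cysteine, which also has phospholipase activity and in brain is abundant in astrocytes. Probe set rc_AA892041_at read 707.3 and 653.9 with estradiol, against 472.2 and 454.9 with placebo. Both estradiol pools exceeded both placebo pools, with means of 680.6 ± 37.8 and 463.55 ± 12.2 (SD, n = 2 each). The log2 fold change was 0.54 ± 0.19 (SE), with a 95% interval from 0.09 to 0.99, an unadjusted p of 0.0251 and an adjusted p of 0.998 in limma. It ranged from 0.48 to 0.59 with 1 pool left out. Probe set AF014009_at read 157.9 and 234.6 with estradiol, against 214.8 and 178.3 with placebo, and Y17295cds_s_at read 177.4 and 214.6 against 199.7 and 191.5. In these 2 the estradiol values lay on both sides of the placebo values, and the log2 fold changes were -0.02 ± 0.26 and -0.00258 ± 0.22 (SE). The interval of AF014009_at reached up to 0.57 and so included 0.54, whereas that of Y17295cds_s_at ended below it, at 0.50. Of 9 astrocyte markers, 2 had log2 fold changes above 0, with a median of -0.10. Their summed intensity was 14192.3 and 14015 with estradiol, against 16110.1 and 14132.4 with placebo. The part of astrocytes in the Prdx6 values was not tested.

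**Figure D2:**
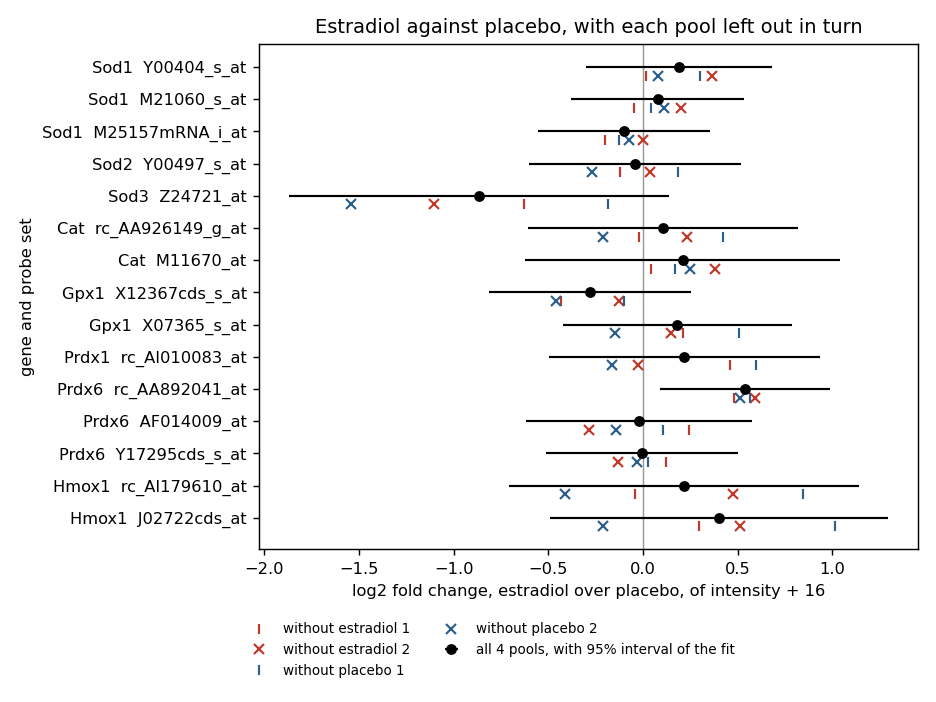
Log2 fold change of estradiol over placebo, on the scale of intensity + 16, for the 15 member probe sets tested. Black points and lines are the fit to 4 pools with its 95% interval, and coloured marks are the values with 1 pool left out. The interval of Prdx6 rc_AA892041_at lies above 0, and the other 14 include 0.

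Prdx1, a thioredoxin-dependent peroxiredoxin of the cytosol, had 1 probe set, rc_AI010083_at, which read 232.1 and 332.5 with estradiol, against 313.2 and 178.4 with placebo. The higher and the lower pool of each group overlapped those of the other. The means were 282 ± 71.0 and 246 ± 95.3 (SD, n = 2 each), a log2 fold change of 0.22 ± 0.31 (SE), with 0.60 without placebo 1 and -0.16 without placebo 2. The SD of each group was larger than the difference between the means.

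The superoxide dismutases differed in how closely their pools agreed. Sod1, the copper and zinc enzyme of the cytosol, was measured by 3 probe sets, all above background on every array. Probe set Y00404_s_at read 1413.5 and 1108.3 with estradiol, against 1182.9 and 1012.2 with placebo. Probe set M21060_s_at read 1142.8 and 960.7 with estradiol, against 967.3 and 1018.1 with placebo. Probe set M25157mRNA_i_at read 851.2 and 737.4 with estradiol, against 835.0 and 866.1 with placebo. In all 3 the highest or the lowest value belonged to an estradiol pool and the groups overlapped. The log2 fold changes were 0.19 ± 0.21, 0.08 ± 0.20 and -0.10 ± 0.19 (SE), and the widest of their 95% intervals ran from -0.30 to 0.68. These were among the narrowest intervals of the members, so a difference of 1 on the log2 scale lay outside them. Sod2, the manganese enzyme of mitochondria, had 1 probe set, Y00497_s_at, which read 216.7 and 192.3 with estradiol, against 249.1 and 177.7 with placebo. Here the placebo pools bracketed the estradiol pools, with a log2 fold change of -0.04 ± 0.24 (SE) that was 0.18 without placebo 1 and -0.27 without placebo 2.

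Sod3, the secreted dismutase bound to the extracellular matrix of vessels, had the lowest fold change of the members, and it rested on 1 pool. Probe set Z24721_at read 62.2 and 92.6 with estradiol, against 252.2 and 88.9 with placebo. Placebo 1 stood alone, 2.84-fold above placebo 2, which lay within the range of the estradiol pools. The log2 fold change was -0.86 ± 0.43 (SE), with a 95% interval from -1.87 to 0.14, an unadjusted p of 0.0818 and an adjusted p of 0.998 in limma, and it was -0.19 without placebo 1. Markers of vessels were also high in that pool. Of 8 vascular markers that passed the filter, 7 were brighter in placebo 1 than in placebo 2, and the summed intensity of all 12 measured was 1911.6 and 1563 with estradiol, against 2448.4 and 1753.4 with placebo. Of the genes in this vascular list, Vwf and Abcb1b were at background on every array by their brightest probe sets. Choroid plexus and meningeal markers were higher in the same pool, with sums of 2321.9 and 6856 with estradiol, against 12067.5 and 1305 with placebo, over 11 measured genes. Of these 11, Slc22a6 was at background on every array. Ttr carried most of the gaps between pools, with 165.3 and 4311.9 with estradiol, against 8034.3 and 74.3 with placebo. Of the 9 that passed the filter, 8 were brighter in placebo 1, and Col3a1 was the exception (63.1, against 108.0 in placebo 2). The part of these cells in the Sod3 value was not tested, and in pooled tissue fewer cells of a type and less RNA per cell cannot be told apart. The other Sod3 probe set, X68041cds_s_at, read 22.2 and 21.6 with estradiol, against 19.7 and 20.8 with placebo, at background on every array, and was not tested.

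For Cat and Gpx1, which break down hydrogen peroxide, the estradiol and placebo pools overlapped in every tested probe set. Cat, the catalase of peroxisomes, had 3 probe sets, of which only rc_AA926149_g_at was above background in every pool. Probe set rc_AA926149_g_at read 88.8 and 72.0 with estradiol, against 95.2 and 55.6 with placebo, for a fold change on the log2 scale of 0.11 ± 0.31 (SE). Probe set M11670_at read 48.7 and 35.2 with estradiol, against 32.4 and 35.2 with placebo, with 0.21 ± 0.36 (SE), and 1 pool of each group was at background. This probe set lay just inside the filter, at a mean of 37.9. The third, rc_AA926149_at, lay just outside it at 37.475 and read 40.9 and 40.7 with estradiol, against 47.7 and 20.6 with placebo. Placebo 1 was thus the brightest pool and placebo 2 the dimmest in the 2 Cat probe sets that share the name rc_AA926149. In M11670_at placebo 1 was the dimmest pool, at 32.4. Catalase is abundant in red cells, and blood cell markers were lower with estradiol in 6 of 7 genes. Their sums were 2138.6 and 4499 with estradiol, against 6438.3 and 5648.4 with placebo. The globin Hbb was the largest part of each sum, with 958.7 and 2309.8 with estradiol, against 3517.3 and 3055.2 with placebo. Hbb-b1, also a globin, came next, with 694.1 and 1654.7 with estradiol, against 2290 and 1819.2 with placebo. The part of blood in the Cat values was not tested.

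Gpx1, the glutathione peroxidase of cytosol and mitochondria, had 2 tested probe sets of opposite sign. Probe set X12367cds_s_at read 425.6 and 341.3 with estradiol, against 530.0 and 409.3 with placebo, for a fold change on the log2 scale of -0.28 ± 0.23 (SE). Probe set X07365_s_at read 339.3 and 355.7 with estradiol, against 386.3 and 239.5 with placebo, for a fold change on the log2 scale of 0.18 ± 0.26 (SE). In both, placebo 1 was the brightest pool, and placebo 2 was the dimmest in the second alone. The third, M21210_i_at, read 5.7 to 8.5 and was at background on every array. Gclc, the catalytic subunit of glutamate cysteine ligase, had 1 probe set, J05181_at, which read 18.6 and 37.5 with estradiol, against 10.2 and 46.6 with placebo, and only placebo 2 exceeded background. It was below the filter and was not tested.

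The pattern that most members shared was a difference between the placebo pools. Of the 15 tested member probe sets, 12 were brighter in placebo 1 than in placebo 2, with a median log2 difference of 0.36, whereas 45.3% of all tested probe sets were brighter in placebo 1 and the median was -0.04. With estradiol, 10 of 15 were brighter in pool 1, with a median of 0.20, against 48.5% of all probe sets and a median of -0.01. The members that differed most between placebo pools were Sod3 with 1.35, Hmox1 with 1.25 and 1.23, Prdx1 with 0.76, Gpx1 X07365_s_at with 0.65 and Cat rc_AA926149_g_at with 0.64. The exceptions were 2 probe sets of Sod1 with -0.07 and -0.05 and Cat M11670_at with -0.08. These counts describe 2 pools and carry no test, and probe sets of 1 gene are not independent.

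Markers of several cell types differed between the same placebo pools. All 7 oligodendrocyte markers were brighter in placebo 1, with a median log2 difference of 0.68, and their summed intensity was 16825.5 and 12824.7 with estradiol, against 20892.6 and 13396.7 with placebo. None of 12 neuron markers was brighter in placebo 1, with a median of -0.78, and the sums over 13 measured were 8303.7 and 9410.8 with estradiol, against 6921.7 and 10496.3 with placebo. Of the microglia and macrophage markers, 6 of 9 were brighter in placebo 1, with a median of 0.23 and sums over 11 measured genes of 1901 and 2228.4 with estradiol, against 2146.5 and 1882.5 with placebo. Of these, Itgam and Csf1r were at background on every array. Of the choroid plexus and meningeal markers, 8 of 9 were brighter in placebo 1, with a median of 0.89. The count was 7 of 9 for astrocytes (median 0.08), 3 of 3 for neutrophils (median 0.35) and 7 of 8 for vessels (median 0.52). It was 3 of 7 for blood cells (median -0.14) and 2 of 9 for striatum (median -0.20). The share of the members' difference that goes with these markers was not tested.

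**Figure D3:**
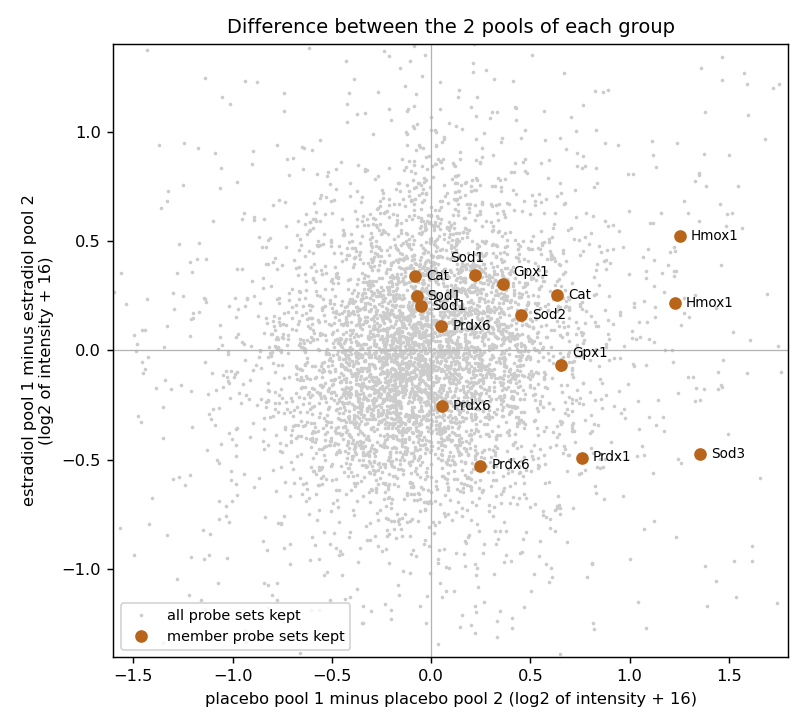
Difference between the 2 pools of each group on the log2 scale of intensity + 16, placebo 1 minus placebo 2 on the horizontal axis and estradiol 1 minus estradiol 2 on the vertical axis. Orange points are the 15 member probe sets with their gene symbols and grey points all 5244 probe sets, of which 130 lie outside the axes. Of the orange points, 12 lie right of 0, with both Hmox1 points and Sod3 farthest right.

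Promoter sequences are shown for Prdx1 and Sod2, which were among the members brighter in placebo 1, because they alone of the members found hold the letters of an antioxidant response element. RefSeq promoters of assembly GRCr8, from 250 bases before to 50 after the gene start, were found for 7 of the 10 genes, Sod1, Sod2, Cat, Gpx1, Prdx1, Txn1 and Gclc. They were searched on both strands for TGACNNNGC, the core of the element. Of all 33469 promoters, 12.06% held it, against 2 of these 7. In each the match is on the reverse strand and is printed in capitals. It begins 135 bases before the start in Prdx1 (chr5:135383656-135383955, plus strand) and 35 bases before it in Sod2 (chr1:50050119-50050418, minus strand). A match is a description of the letters and not a site in use.
Prdx1: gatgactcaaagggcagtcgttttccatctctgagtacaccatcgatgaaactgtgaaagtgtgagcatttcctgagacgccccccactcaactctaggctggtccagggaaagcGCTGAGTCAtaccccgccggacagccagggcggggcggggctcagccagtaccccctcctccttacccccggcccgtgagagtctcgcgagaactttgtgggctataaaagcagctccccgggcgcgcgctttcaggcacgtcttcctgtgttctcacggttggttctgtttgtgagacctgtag
Sod2: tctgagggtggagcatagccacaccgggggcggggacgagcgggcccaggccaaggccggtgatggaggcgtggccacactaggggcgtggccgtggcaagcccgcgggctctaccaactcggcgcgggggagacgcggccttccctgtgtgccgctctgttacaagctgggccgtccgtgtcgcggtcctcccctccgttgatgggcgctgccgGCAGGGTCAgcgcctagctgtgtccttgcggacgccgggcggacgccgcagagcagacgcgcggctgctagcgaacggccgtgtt
The log2 difference between placebo 1 and placebo 2 was 0.76 for Prdx1 and 0.45 for Sod2. It was 0.65 and 0.36 for the 2 probe sets of Gpx1, whose promoter held no match. The promoters of Sod1 and Cat held none either, with 0.22, -0.07 and -0.05 for Sod1 and 0.64 and -0.08 for Cat. Txn1 and Gclc, also without a match, had no tested probe set. Whether the letters go with the difference between placebo pools was not tested.

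Other genes of redox metabolism were grouped in 8 lists by role. Of 125 genes listed, 74 were measured, and 61 passed the filter by their brightest probe set. With estradiol, 34 of these 61 had log2 fold changes above 0 and 27 below, with a median of 0.03. In limma, 0 of their 91 tested probe sets passed the adjusted threshold, and 1, of Alas1, had an unadjusted p below 0.05. The pools did not overlap for 11 probe sets that were higher with estradiol and 15 that were lower, where 15.4% and 14.3% of all tested probe sets were so.

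Glutathione genes lay lower in 5 of 8 cases, with a median log2 fold change of -0.16. Gsr, which regenerates glutathione from its oxidised form, read 55.5 and 73.4 with estradiol, against 94.6 and 92.7 with placebo, for a fold change on the log2 scale of -0.46 ± 0.26 (SE). Its second tested probe set, U73174_at, read 33.3 and 21.1 with estradiol, against 65.6 and 34.9 with placebo, with both estradiol values not above background. In both probe sets each estradiol pool was below each placebo pool. Gpx4, which reduces lipid peroxides in membranes, read 1111.9 and 1011.0 with estradiol, against 1358.5 and 1242.2 with placebo, with -0.29 ± 0.19 (SE) and no overlap. Gss, glutathione synthetase, read 290.4 and 167.2 with estradiol, against 97.0 and 220.5 with placebo, with 0.54 ± 0.39 (SE), and 0.00258 without placebo 1. Each of these tested probe sets had an adjusted p of 0.998 in limma. The other Gss probe set, L38615_at, read 17.7 and 5.1 with estradiol, against 12.4 and 14.5 with placebo. It was at background on every array and was not tested. Gclm, the partner subunit of Gclc, did not pass the filter with any of its 3 probe sets.

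Of the thioredoxin and peroxiredoxin genes, 4 of 6 lay above 0, with a median of 0.06. They had log2 fold changes between -0.10, for Prdx3 of mitochondria, and 0.15, for Txnip, which binds thioredoxin. The second probe set of Prdx3 gave 0.27 and that of Txnip 0.22. Txnrd1, the cytosolic thioredoxin reductase, gave 0.03 and -0.20 in its 2 probe sets, with the first turning negative after median centring.

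Of the genes of heme and iron, 7 of 11 lay above 0. Alas1, the first enzyme of heme synthesis, read 92.1 and 117.0 with estradiol, against 57.9 and 59.4 with placebo in probe set J03190_g_at. Both estradiol pools were higher, with a log2 fold change of 0.68 ± 0.26 (SE), an unadjusted p of 0.0314 and an adjusted p of 0.998 in limma. Its other probe set, J03190_at, gave -0.14 ± 0.32 (SE), from 45.2 and 57.9 with estradiol, against 46.9 and 71.7 with placebo. Alas2, the red cell form, gave -0.41 ± 0.26 (SE), and it is also one of the blood cell markers counted above. Hmox2, the constitutive heme oxygenase of neurons, differed in sign between its probe sets. Probe set U05013_at read 196.5 and 217.5 with estradiol, against 139.2 and 229.2 with placebo, with 0.19 ± 0.27 (SE) and -0.14 without placebo 1. Probe set J05405mRNA_s_at read 97.6 and 33.1 with estradiol, against 114.7 and 127.1 with placebo, with -0.87 ± 0.39 (SE), and -0.27 without estradiol 2, whose value was at background.

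**Figure D4:**
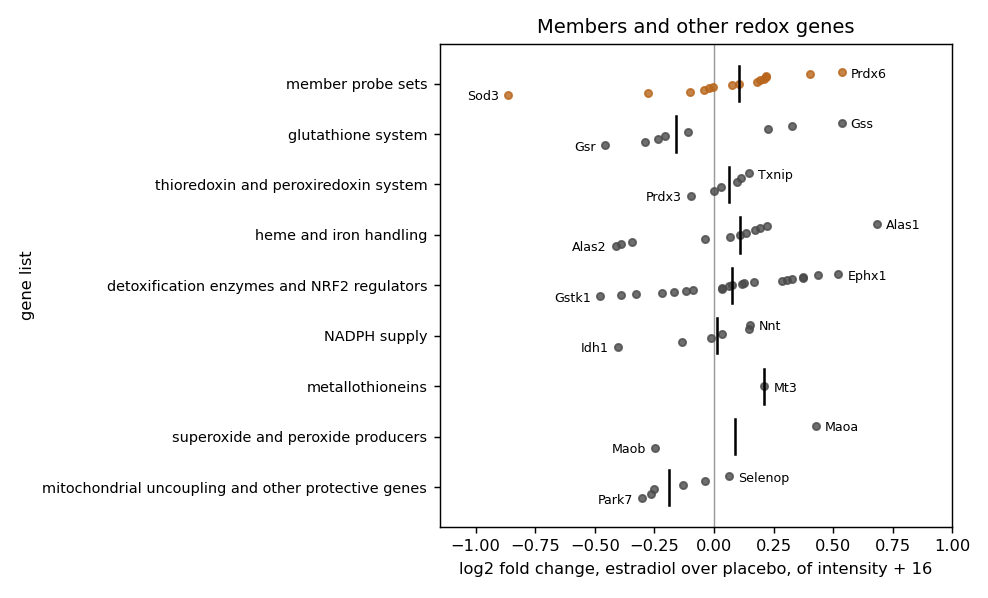
Log2 fold change of estradiol over placebo, on the scale of intensity + 16, for the 15 member probe sets (orange) and for the 61 other redox genes that passed the filter (grey, each by its brightest probe set), by list. Black bars are list medians, and the highest and lowest of each list are named. Every list with more than 1 gene has values on both sides of 0.

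Detoxification enzymes and NRF2 regulators had 14 of 21 genes above 0, with a median of 0.08. Their ends were Ephx1, the microsomal epoxide hydrolase, with 0.52 ± 0.37 (SE), and Gstk1, a mitochondrial glutathione transferase, with -0.48 ± 0.71 (SE). The second tested probe set of Gstk1, rc_AI105137_s_at, gave 0.01, and turned negative after quantile normalisation and median centring. The first, S83436_i_at, read 392.6 and 58.8 with estradiol, against 331.9 and 154.2 with placebo, so the pools differed more than the groups. Nfe2l2, which encodes NRF2, read 50.4 and 47.8 with estradiol, against 35.4 and 39.6 with placebo, with 0.28 ± 0.33 (SE). Its pools did not overlap, but placebo 1 was at background, and its other probe set, below the filter, read 33.2 and 26.8 with estradiol, against 58.4 and 29.7 with placebo. Nqo1, a quinone reductase that is a standard NRF2 target, read 150.0 and 112.7 with estradiol, against 175.4 and 115.1 with placebo, with -0.12 ± 0.27 (SE). Of the 21 genes, 16 were brighter in placebo 1 than in placebo 2, with a median log2 difference of 0.38. The other lists varied. Brighter in placebo 1 were 4 of 6 thioredoxin and peroxiredoxin genes (median 0.13), 2 of 2 superoxide and peroxide producers (median 0.88) and the only metallothionein (0.49). For glutathione genes the count was 4 of 8, and for uncoupling and other protective genes 3 of 6 (median 0.016). Fewer were so among heme and iron genes, with 3 of 11 (median -0.07), and NADPH suppliers, with 2 of 6 (median -0.16). Over all lists it was 35 of 61 genes, with a median of 0.06, where 45.3% of all tested probe sets were brighter in placebo 1. No gene was named Keap1 by a probe set of its own, and it was not analysed here.

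In the remaining lists no probe set had an unadjusted p below 0.05 in limma. The NADPH suppliers had 3 of 6 genes above 0, between -0.40 for Idh1, the cytosolic isocitrate dehydrogenase, and 0.15 for Nnt of mitochondria. Mt3, the brain metallothionein, read 2348.1 and 2553.1 with estradiol, against 2505.0 and 1780.1 with placebo, with 0.21 ± 0.22 (SE). Of enzymes that make peroxide, Maoa, a monoamine oxidase, gave 0.43 ± 0.37 (SE) and 0.17 in its 2 probe sets, and Maob gave -0.25 ± 0.30 (SE). Of the uncoupling and other protective genes, 5 of 6 lay below 0, with Park7, a redox-sensitive chaperone, at -0.30 ± 0.22 (SE) and -0.21, and Selenop, a secreted selenium carrier, at 0.06.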

How the data were processed

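RNA of 4 pools of rat cortex was measured on Affymetrix Rat Genome U34A arrays, per the series design text. Values are the intensities deposited by the authors, on a linear scale and scaled to a common level, as the values show (means after trimming 2% at each end were 150.18 to 150.20). The sources used here name no program for this step. Of 8799 rows, 59 controls were left out, and of the 8740 that remained, 7006 had a single symbol in GEO's platform annotation. No gene was named from the 308 with several symbols, and 1426 had none.

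Array medians lay within 0.056 on the log2 scale, under a limit of 0.1, so values were used as deposited. They were transformed as log2(intensity + 16), which understates changes of dim probe sets. The 5244 probe sets at or above the 40th percentile of mean intensity were fitted with limma 3.58.1 in R 4.3.3 (lmFit, eBayes with an intensity trend, two-sided), with Benjamini-Hochberg adjustment over all of them. The fit had 2 residual and 5.63 prior degrees of freedom. The code was tested on simulated data. Tables and plots used Python 3.11.15, pandas 2.3.3 and matplotlib 3.10.9.

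A value at or below the brightest of 23 foreign control probe sets of its array is called background. Every member probe set is described. Of the other redox genes, those named were the highest and lowest of each list by brightest probe set, any past the adjusted threshold, and fixed partners (Hmox2, Gclm, Gsr, Gpx4, Txnrd1, Nfe2l2, Keap1, Nqo1, Mt1a, Mt2A). Probe sets with several symbols include metallothioneins, which were left out. The members and lists were chosen with earlier results of these data known. Replicate numbers come from the titles. The 12 alternatives tried were offsets of 1 and 64, no filter, a filter at the 60th percentile, quantile normalisation, median centring, no trend, the replicate number as a block, and each pool left out. P-values rest on the spread between pools, which is the only replication. With 5.63 prior against 2 residual degrees of freedom, they draw more on the intensity trend over all tested probe sets than on each probe set's own pools.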

Additional observations from a re-analysis of the deposited data

How the results depend on the processing

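The count of probe sets past the adjusted threshold in limma was 0 in all 12 alternatives, for all probe sets, for the members and for the other redox genes, and at an unadjusted p below 0.05 between 89 and 337 probe sets were counted. The smallest adjusted p of any probe set lay between 0.139 and 0.99997. The replicate number as a block gave 0 calls, 123 probe sets higher and 87 lower at an unadjusted p below 0.05 (91 and 70 without it), and changed no member's call. The pool differences of the 2 groups correlated at 0.04 (Pearson) and 0.11 (Spearman) across 5244 probe sets, and no label says that a number marks a shared batch or day, so the numbers were not taken to pair the samples. The count of members whose groups did not overlap was 1, and 2 with no filter (with Sod3 X68041cds_s_at, at background) and 2 after median centring (with Sod1 M25157mRNA_i_at). Over all probe sets the share was 28.8% to 30.8% in the settings that keep every pool. The members' count was 7 to 9 of 15 with 1 pool left out, which leaves fewer values to overlap, where 61.7% to 66.9% of all probe sets did not overlap. Offsets, filters and scalings turned no member's sign. Txnrd1 rc_AA891286_at was -0.00502 after median centring, and Gstk1 rc_AI105137_s_at was -0.0214 after quantile normalisation and -0.0201 after median centring. With 1 pool left out, the sign of the log2 fold change turned for several members, with these lowest and highest values. Values were Sod1 M21060_s_at -0.046 to 0.20, Sod1 M25157mRNA_i_at -0.20 to 0.00131, Sod2 Y00497_s_at -0.27 to 0.18, Cat rc_AA926149_g_at -0.21 to 0.42 and Gpx1 X07365_s_at -0.15 to 0.51. Others were Prdx1 rc_AI010083_at -0.16 to 0.60, Prdx6 AF014009_at -0.28 to 0.24, Prdx6 Y17295cds_s_at -0.13 to 0.12, Hmox1 rc_AI179610_at -0.41 to 0.84 and Hmox1 J02722cds_at -0.21 to 1.02. Other redox probe sets whose sign turned had these values. Values ran for Txnip rc_AI014169_at -0.40 to 0.69, Txnip rc_AI237654_at -0.13 to 0.57, Prdx3 rc_AA799650_at -0.36 to 0.17, Prdx3 rc_AA799650_g_at -0.064 to 0.61 and Txnrd1 rc_AA891286_at -0.11 to 0.16. Ranges were Txnrd1 U63923_at -0.41 to 0.019, Alas1 J03190_at -0.38 to 0.10, Hmox2 U05013_at -0.14 to 0.52, Gstk1 rc_AI105137_s_at -0.24 to 0.27 and Gstk1 S83436_i_at -1.70 to 0.75. Next came Nqo1 J02679_s_at -0.39 to 0.16, Nnt rc_AA891872_at -0.029 to 0.33, Mt3 rc_AA924772_at -0.033 to 0.46, Maoa D00688_s_at -0.16 to 1.01 and Maoa S45812_s_at -0.044 to 0.38. Values ran for Maob M23601_at -0.55 to 0.051, Selenop rc_AI230247_s_at -0.10 to 0.23 and Park7 AJ007291_at -0.42 to 0.0109. The cause was not tested. In these fits the single pool of a group is assumed to vary like the other group. Dim probe sets, such as Cat M11670_at, Cat rc_AA926149_at, Sod3 X68041cds_s_at, that of Gclc and Gpx1 M21210_i_at, are limited by background.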
